A study of Mus musculus with 6 samples.

Results

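Sdcbp2 and Tmem229b are 2 genes of the 21368 that could be named on the array, and they are described here on 6 arrays that set knockout against wild-type mouse epidermis. They were picked by their measured values, as the strongest rises in the double knockout that lie outside the epidermal differentiation complex (EDC), the gene cluster that encodes much of the cornified envelope. Each gene was read by 1 probe, A_51_P234253 for Sdcbp2 and A_52_P220783 for Tmem229b, of 55681 probes in all. Their double-knockout values are therefore the basis of the choice and are given as a description with no test.

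The samples were epidermis of embryos at embryonic day 16 with the strain label 129SvEx:C57BL/6. In Sox4 cKO, Sox4 fl/fl was deleted by Krt14-Cre, in Sox11 cKO, Sox11 fl/fl was deleted by the same Cre, and in dcKO both genes were deleted; Krt14-Cre acts in keratinocytes and the study's Cre line was on FVB/N. The floxed stock also carried Sox12 null alleles per the study's methods, and the Sox12 genotype of the arrayed embryos is not given in the sources used here. Each genotype had 2 arrays with 2 biological replicates, and each array carried knockout RNA in one dye and wild-type littermate RNA in the other, with the dyes exchanged between replicate 1 (knockout in Cy5) and replicate 2 (knockout in Cy3). The epidermis had been separated from dorsal skin with dispase, so residual cells of other layers are possible. A difference in bulk RNA cannot tell fewer cells of a type from less RNA per cell.

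Sdcbp2 encodes syntenin-2, a small scaffold protein with paired PDZ domains that bind phosphoinositides and the tails of membrane proteins. Its better studied relative, syntenin-1 (Sdcbp), joins syndecans to ALIX (Pdcd6ip) and to the membrane-budding machinery in the formation of exosomes. Tmem229b encodes a transmembrane protein of the Tmem229 family whose function is little described. SOX4 and SOX11 are SOXC transcription factors of embryonic epidermis, a tissue in which keratinocytes leave the basal layer, switch keratins and assemble the cornified envelope late in gestation.

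The promoters are shown because the levels of both genes varied together across samples, as given further on. The RefSeq table (GRCm38.p6) held 1 promoter for Sdcbp2 and 2 for Tmem229b, each running 5′ to 3′ on the gene's strand from 250 bases before the start site for 300 bases. They lie at chr2:151572373-151572672 (plus strand), at chr12:79007228-79007527 (minus strand) and at chr12:78983433-78983732 (minus strand). Capitals mark a match to TGANTCA, the AP-1 motif.
Sdcbp2: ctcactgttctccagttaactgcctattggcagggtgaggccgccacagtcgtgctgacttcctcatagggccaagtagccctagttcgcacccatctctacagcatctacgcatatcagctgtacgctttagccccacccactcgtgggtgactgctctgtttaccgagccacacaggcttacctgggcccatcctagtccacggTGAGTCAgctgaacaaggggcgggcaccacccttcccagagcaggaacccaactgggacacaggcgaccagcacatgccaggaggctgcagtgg
Tmem229b, start 1: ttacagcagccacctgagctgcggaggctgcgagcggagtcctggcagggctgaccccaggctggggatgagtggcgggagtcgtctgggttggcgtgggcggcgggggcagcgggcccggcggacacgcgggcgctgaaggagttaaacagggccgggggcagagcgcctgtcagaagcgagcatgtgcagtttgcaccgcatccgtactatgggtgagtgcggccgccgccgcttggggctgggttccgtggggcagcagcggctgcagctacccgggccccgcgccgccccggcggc
Tmem229b, start 2: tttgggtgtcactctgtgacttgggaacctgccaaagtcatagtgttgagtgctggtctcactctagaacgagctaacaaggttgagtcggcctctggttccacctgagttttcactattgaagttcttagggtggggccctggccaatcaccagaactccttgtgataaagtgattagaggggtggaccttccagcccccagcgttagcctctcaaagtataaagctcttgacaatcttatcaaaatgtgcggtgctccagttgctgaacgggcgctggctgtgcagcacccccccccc
The search covered both strands for TGANTCA, for ACAAAG and ACAATG (SOX) and for GGAATG (TEAD). It found 1 match in all and so no overlap between motifs, TGAGTCA at -44 to -38 of the Sdcbp2 start, and none in either Tmem229b window. Of all 32851 promoters of this length, 7.81% held TGANTCA, 18.7% held ACAAAG, 12.6% held ACAATG and 14.7% held GGAATG. G and C made up 59% of the Sdcbp2 window, 72.7% of the first Tmem229b window and 52.3% of the second. Which Tmem229b start supplies the RNA read by the probe was not tested.

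The targeted genes were read from their own probes as a check of the labels. The dimmer of 2 Sox4 probes was not well above background in any Sox4 cKO or dcKO knockout channel, at mean log2 ratios of -1.96 and -1.58 against wild type. The brighter Sox4 probe stood at -0.42 and -0.82, and neither value passed the test. Both Sox11 probes were not well above background in any Sox11 cKO or dcKO knockout channel. Their mean log2 ratios were -0.09 and 0.05 in Sox11 cKO, and -0.28 and -0.72 in dcKO. The arrays were thus too dim at Sox11 to check that label. By RT-qPCR of isolated epidermis, the study checked the loss of Sox4 and/or Sox11 in the knockouts before it put that RNA on arrays. Across an array the median signal was 58 to 63.5 in the Cy5 channel (local background 49 to 51) and 37 to 42 in Cy3 (26 to 32), and 38.9% to 43.6% of the spots that were not controls lay well above it.

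In dcKO epidermis Sdcbp2 was the gene with the largest mean ratio outside the EDC. Its log2 ratio of knockout over wild type was 3.65 on replicate 1 and 4.13 on replicate 2, which are 12.5-fold and 17.5-fold. The mean was 3.89 ± 0.34 (SD, n = 2). The raw median signal of the spot was 3832 in the knockout channel against 220 in wild type on replicate 1, and 1214 against 136 on replicate 2. All 4 channels were well above background. The gene was chosen by this ratio, so the gap between knockout and wild-type signals is part of the choice. Among all probes the ratio ranked 10 on replicate 1 and 8 on replicate 2, counted from the highest.

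Tmem229b had ratios of a similar size. Its log2 ratio in dcKO was 3.66 on replicate 1 and 3.84 on replicate 2, or 12.6-fold and 14.3-fold, with a mean of 3.75 ± 0.13 (SD, n = 2). The raw signal was 4948 in the knockout against 284 in wild type on replicate 1, and 1132.5 against 147.5 on replicate 2. Here too each channel was well above background, and the gap between knockout and wild type is part of the choice. The ratio ranked 9 and 12 among all probes on the 2 arrays. No spot of either gene was saturated or carried an outlier mark on any array. Of all probes 0.207% were called in dcKO in either direction, at a limma adjusted p under 0.05 with an absolute log2 ratio over 1.5, and 0.172% were called higher. These shares are the setting of the rule that chose the pair, and nothing is read from them.

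The 2 genes stood 5 and 7 in the order of mean dcKO ratios over all named genes, with EDC genes, mostly of the late cornified envelope (Lce) family, around them. Outside the EDC the next mean was 3.23 for Il18, a cytokine gene, at 3.40 and 3.06 on the 2 arrays. Skint3 followed at 3.01 but differed between arrays (4.48 and 1.54). The unnamed gene 3300005D01Rik had a mean of 2.98, Lnx1, an E3 ubiquitin ligase gene, had 2.74, and Slurp1, which encodes a secreted protein of differentiated keratinocytes, also had 2.74. The values just inside and just outside the choice thus formed a graded series, in which Sdcbp2 and Tmem229b had the 2 highest means.

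**Figure D1:**
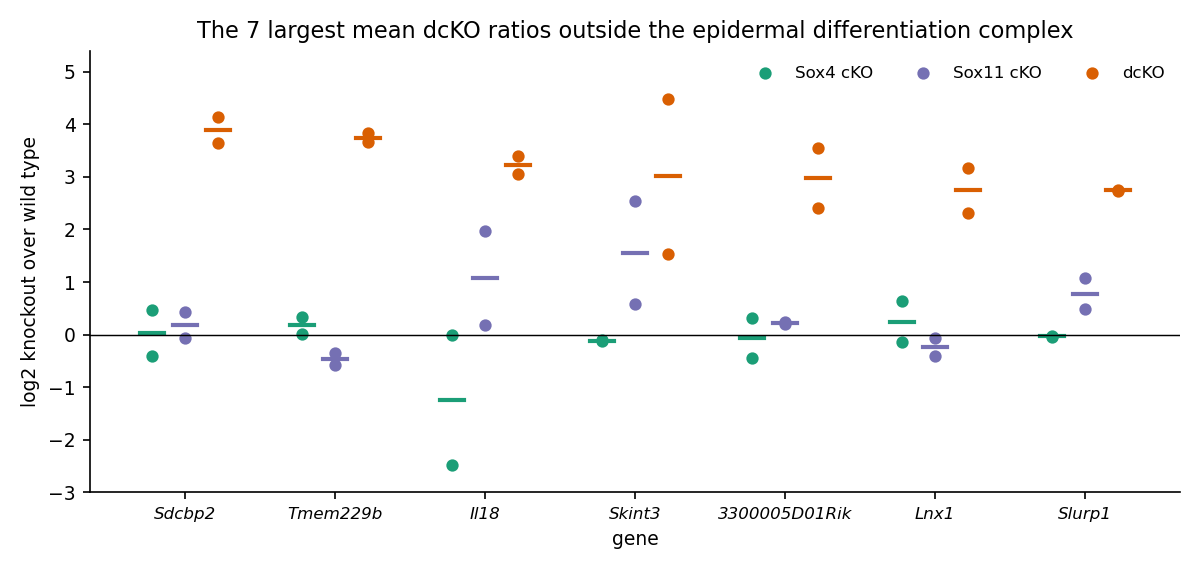
Log2 ratio of knockout over wild type (y axis) for Sdcbp2, Tmem229b and the 5 genes with the next largest mean in dcKO outside the EDC (x axis). Points are the 2 arrays of a genotype and bars are their mean; in dcKO the pair lies between 3.65 and 4.13, while their single-knockout points lie between -0.57 and 0.46.

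The single knockouts were not used in the choice and were tested with limma across all 55681 probes. In Sox4 cKO the log2 ratio of Sdcbp2 was -0.41 on replicate 1 and 0.46 on replicate 2. The arrays thus fell on opposite sides of 0, and the mean of 0.03 ± 0.62 (SD, n = 2) had a 95% interval of -0.28 to 0.34 and a limma adjusted p of 0.991. In Sox11 cKO the ratios were -0.06 and 0.44, with a mean of 0.19 ± 0.35 (SD, n = 2), an interval of -0.12 to 0.50 and a limma adjusted p of 0.817. The Feature Extraction log ratio gave a larger mean there, 0.83 with a limma adjusted p of 0.679. On Sox11 cKO replicate 2 the wild-type channel of Sdcbp2 was not well above background, so only 1 of the 2 arrays measured the gene in both channels.

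Tmem229b gave log2 ratios of 0.02 and 0.34 in Sox4 cKO, with a mean of 0.18 ± 0.23 (SD, n = 2), an interval of -0.15 to 0.50 and a limma adjusted p of 0.889. In Sox11 cKO both arrays were below 0, at -0.35 and -0.57. The mean was -0.46 ± 0.16 (SD, n = 2) with an interval of -0.78 to -0.13, and the limma p of 0.0111 before adjustment became 0.694 after it. Neither gene passed the test in either single knockout, where 0.00539% of all probes were called in Sox4 cKO and 0% in Sox11 cKO. Without adjustment, 3923 probes had a limma p under 0.05 in Sox11 cKO and 3439 in Sox4 cKO. As folds of wild type, the upper ends of the intervals were 1.26 for Sdcbp2 and 1.42 for Tmem229b in Sox4 cKO. In Sox11 cKO they were 1.42 and 0.911. For Sdcbp2, replicate 2 lay above replicate 1 in each genotype (by 0.87 for Sox4 cKO, by 0.50 for Sox11 cKO and by 0.48 for dcKO), a shared difference that the replicate block of the fit removed. Without the block its intervals widened to -0.49 to 0.54 in Sox4 cKO, and to -0.32 to 0.70, or up to 1.63-fold, in Sox11 cKO. The difference between dcKO and the single knockouts was not tested, because the dcKO values chose the pair.

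The levels behind these ratios varied widely among the wild-type samples. The normalised channel scale is log2 intensity after loess and Aquantile, read for 1 probe across samples. Wild types were in Cy3 on replicate 1 and in Cy5 on replicate 2. A dye difference of the probe would remain in these levels, and the ranges and correlations given below pool both dyes. On this scale wild-type Sdcbp2 stood at 10.29 and 6.46 beside Sox4 cKO replicates 1 and 2, at 5.74 and 5.13 beside Sox11 cKO and at 7.96 and 6.41 beside dcKO. The wild type of Sox4 cKO replicate 1 was by far the highest. Over the 5 wild types well above background the range was 4.54 on the log2 scale, or 23.3-fold. It narrowed to 2.22, or 4.67-fold, without that sample.

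Wild-type Tmem229b showed the same order at its upper end. Its level was 10.16 and 7.22 beside Sox4 cKO, 6.23 and 6.60 beside Sox11 cKO, and 8.33 and 6.59 beside dcKO. The range was 3.93, or 15.2-fold, over 6 wild types, and 2.10, or 4.28-fold, without the wild type of Sox4 cKO replicate 1. Among all probes the wild-type ranges over 6 samples were at percentile 99.9 for Sdcbp2 and 99.8 for Tmem229b. For scale, the basal keratin genes Krt5 and Krt14 had wild-type ranges of 0.16 and 0.32. The suprabasal keratin genes Krt1 and Krt10 had 1.44 and 1.23, and the dermal gene Col1a1 had 3.97, as wide as Tmem229b.

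On the array with the highest wild type, the Sox4 knockout was also high. Sdcbp2 stood at 9.88 in that knockout against 10.29 in its wild type, and Tmem229b at 10.18 against 10.16, far above the 6.93 and 7.56 of the other Sox4 knockout. The Sox11 knockouts were low, at 5.69 and 5.57 for Sdcbp2 and at 5.88 and 6.03 for Tmem229b. The dcKO levels were 11.61 and 10.54 for Sdcbp2 and 11.98 and 10.43 for Tmem229b. They lay above all 6 wild types for each gene, which is a description only, because the dcKO values chose the pair.

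The margin over the highest wild type differed between the dcKO replicates. For Sdcbp2 it was 1.32 on replicate 1 and 0.25 on replicate 2, and for Tmem229b it was 1.82 and 0.28, all as log2 differences. The lower dcKO sample and the highest wild type were both labelled with Cy3, and their raw signals were 1214 and 833.5 for Sdcbp2 and 1132.5 and 767 for Tmem229b. Over the highest of the other 5 wild types the lower dcKO level stood higher by 2.58 for Sdcbp2 and by 2.11 for Tmem229b. The large dcKO ratios are thus ratios to the littermate on the same array, and the lower dcKO sample was close to one wild type of another array on the level scale.

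**Figure D2:**
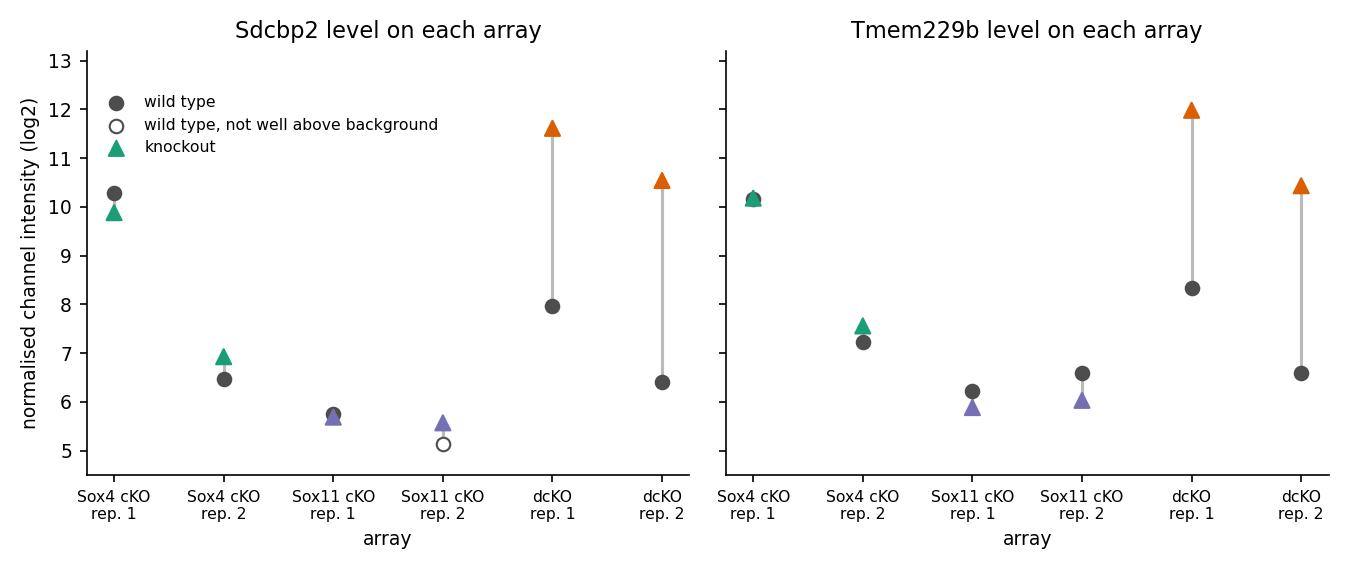
Normalised channel intensity in log2 (y axis) of Sdcbp2 and Tmem229b on each of the 6 arrays (x axis), with circles for wild type, triangles for knockout and a line joining the 2 channels of an array. The open circle is the wild type in which Sdcbp2 was not well above background; the wide gaps lie on the dcKO arrays, and the wild type of Sox4 cKO replicate 1 stands at 10.29 and 10.16.

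The 2 genes varied together across samples, including samples that the choice did not use. Over the 6 wild types their levels had a Pearson correlation of 0.97 and a Spearman correlation of 0.83, and over the 8 samples of the single-knockout arrays of 0.98 and 0.81. Over all 12 samples, which include the dcKO samples that chose them, the values were 0.99 and 0.92. The points share arrays in pairs and the highest of them carry most of the range, so these are descriptions with no p. The 8 samples of the single-knockout arrays were not used in the choice. The genes ranked over them were the 11765 well above background in at least 6 of the 12 samples. That filter counted the dcKO samples, so the ranking was not free of the choice. In it 22 genes followed Sdcbp2 more closely than Tmem229b did, led by the nucleotidase gene Nt5c3 (Pearson correlation 0.998). Lce1h came next (0.996), but it passed the filter only with the dcKO samples and was not well above background on either Sox11 cKO array. Likewise 12 genes followed Tmem229b more closely than Sdcbp2 did, led by Stk10 (0.993), which encodes a serine/threonine kinase. The ranking was added, and these genes were named, after the values were seen.

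**Figure D3:**
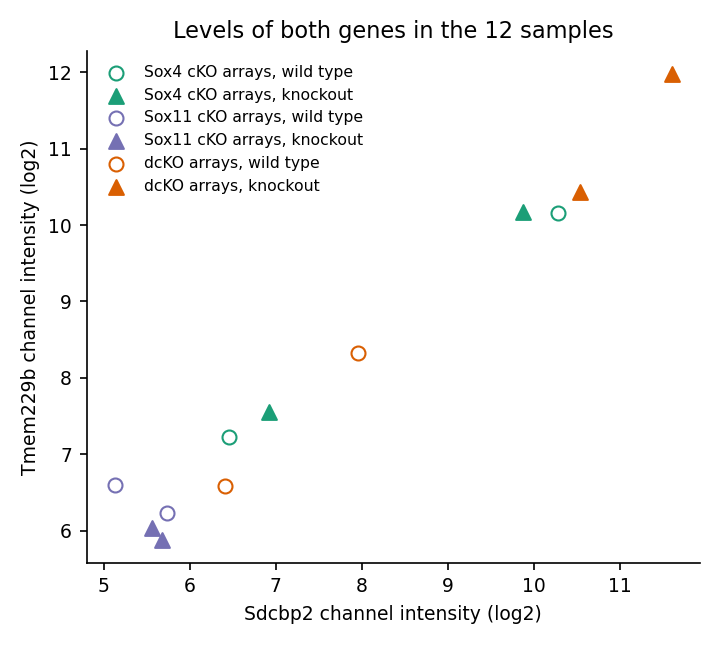
Level of Tmem229b against level of Sdcbp2, both as normalised channel intensity in log2, in the 12 samples, with open circles for wild type, triangles for knockout and colours for the genotype of the array. The points rise together from the Sox11 cKO arrays to the dcKO knockouts, and a knockout and wild-type pair of Sox4 cKO replicate 1 lies near the lower dcKO point.

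The pattern of ratios over the 6 arrays was compared as the root mean square distance of log2 ratios. This distance includes the dcKO ratios that chose the pair, and the next highest mean dcKO ratio outside the EDC was 3.23, so EDC neighbours, and the nearness of the 2 genes to each other, follow from the choice and are listed as a description only. The 5 genes closest to Sdcbp2 were Lce1h (0.19), Lce1k (0.33), Lce1l (0.42), 2310050C09Rik (0.45) and Kprp (0.47), all in the EDC. Lce1h, a cornified envelope gene, had log2 ratios of 3.57 and 4.03 on the dcKO arrays. Its Sox4 cKO arrays gave -0.79 and 0.59, again on opposite sides of 0, and its Sox11 cKO arrays gave 0.06 and 0.25 with both channels not well above background. For Tmem229b the closest was Sdcbp2 itself (0.48), followed by Lce1h (0.52), Lce1l (0.54), Lce1g (0.59) and Lce1k (0.62). Lce family members are near-identical in part, so their probes may share RNA.

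The wild-type samples that differed in Sdcbp2 and Tmem229b also differed in the EDC and in markers of dermis. Set against the median of the 6 wild types, the median shift of 51 measured EDC genes was 0.90 and 0.01 beside Sox4 cKO, -0.68 and -2.44 beside Sox11 cKO and 0.40 and -0.07 beside dcKO. The wild types beside Sox4 cKO replicate 1 and dcKO replicate 1 were the 2 highest for the EDC, for Sdcbp2 and for Tmem229b. In the dcKO samples the same EDC median stood 1.32 and 1.17 above the wild-type median, against 5.17 and 4.10 for Sdcbp2 and 5.07 and 3.52 for Tmem229b. A gene of these lists counted as measured if it was well above background in at least 6 of the 12 samples, dcKO samples included. Some EDC genes, among them Lce1h, Lce1k and 2310050C09Rik, reached that only with the dcKO arrays, where they were high. The EDC median is thus not free of the dcKO rise. These shifts were compared after the values were seen, and the EDC genes include many that rose in dcKO.

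Among 5 measured dermal fibroblast genes the median shift in wild type was 2.09 and -1.20 beside Sox4 cKO, -1.78 and 0.02 beside Sox11 cKO and 0.96 and -0.02 beside dcKO. The summed level of the 6 listed dermal genes (intensity units) was 21578 in the wild type of Sox4 cKO replicate 1 and 6181 to 12223 in the other wild types. The wild types with the most Sdcbp2 and Tmem229b RNA were thus also the 2 highest for dermal genes. In the knockouts this differed. The Sox4 knockout of replicate 1 had a dermal shift of -1.5 with Sdcbp2 at 3.44 and Tmem229b at 3.27 above the wild-type median, and the dcKO samples had dermal shifts of -0.89 and -1.91. Of the 6 dermal genes 5 were below their wild type on both dcKO arrays, at a median log2 ratio of -1.91, and none passed the test. The exception was Dcn, at 0.41 and 0.29. All 6 were well above background somewhere, with the summed level at 9179 and 7673 in dcKO against 12223 and 8428 in wild type. Such a sum is weighted to the brightest genes and need not follow the median. The part of residual dermis in the wild-type levels was not tested.

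Other lists varied among the wild types as well, and not all in the same way. The summed level of 6 periderm genes was highest beside Sox11 cKO, at 13225 and 13229. For 5 melanocyte genes it was 3959 beside Sox4 cKO replicate 1, 3360 beside Sox11 cKO replicate 2 and 2935 beside dcKO replicate 1. For 6 skeletal muscle genes it was 1662 in the wild type of Sox4 cKO replicate 1 and 182 to 501 in the other wild types. None of these 6 was well above background in all 12 samples, and Myog was in none, so the low muscle sums rest largely on dim signals. The muscle sum was 247 beside dcKO replicate 1 and 501 beside dcKO replicate 2. For 5 red blood cell genes the sums were 36892 beside Sox4 cKO replicate 1 and 26797 beside dcKO replicate 1, the 2 highest, and 6501 to 22786 in the rest. The 7 immune genes gave 1002 and 775 in the same pair of wild types, again the 2 highest, and 419 to 682 in the rest. In the dcKO samples the sums were 231 and 238 for muscle and 18332 and 40548 for red blood cell genes, and none of these genes passed the test in dcKO. Their part in the levels of Sdcbp2 and Tmem229b was not tested.

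Basal keratinocyte genes (Krt5, Krt14, Trp63 and Col17a1) had a median shift of at most 0.16 in any of the 12 samples, and each was well above background in all of them. Suprabasal genes (Krt1, Krt10, Dsg1a and Lor) had a median log2 ratio of 0.52 in dcKO and of 0.61 in Sox11 cKO, and none of the 4 passed the test in either. By array the medians were 0.55 and 0.39 in dcKO, but 0.12 and 1.08 in Sox11 cKO. The wild-type sum beside Sox11 cKO replicate 2 was 99167, against 159005 to 219208 in the other wild types. Of the 7 immune genes, Ptprc and Lyz2 were not well above background in any sample, and the other 5 were in at least 1. The summed level of the 7 was 649 and 785 in dcKO against 775 and 578 in wild type. Periderm markers had a median log2 ratio of -1.04 in dcKO, where 5 of 6 were below wild type on both arrays, with sums of 3248 and 3214 against 6997 and 7622. In Sox11 cKO the same list had a median of -1.15, with 4 of 6 below wild type on both arrays and none past the test. There the sums were 7264 and 9318 in knockout against 13225 and 13229 in wild type. Those 2 wild types were the highest, and the wild types beside Sox4 cKO and dcKO stood at 6997 to 8021. In Sox4 cKO the median was 0.40. In dcKO, Krt4, Krt17 and Krt19 of that list were lower with a limma adjusted p of 0.00174, 0.00507 and 0.0177. Each was short of the 1.5 required for a call, and 0.309% of all probes were lower by adjusted p alone. Whether the lower periderm RNA bears on Sdcbp2 or Tmem229b was not tested.

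**Figure D4:**
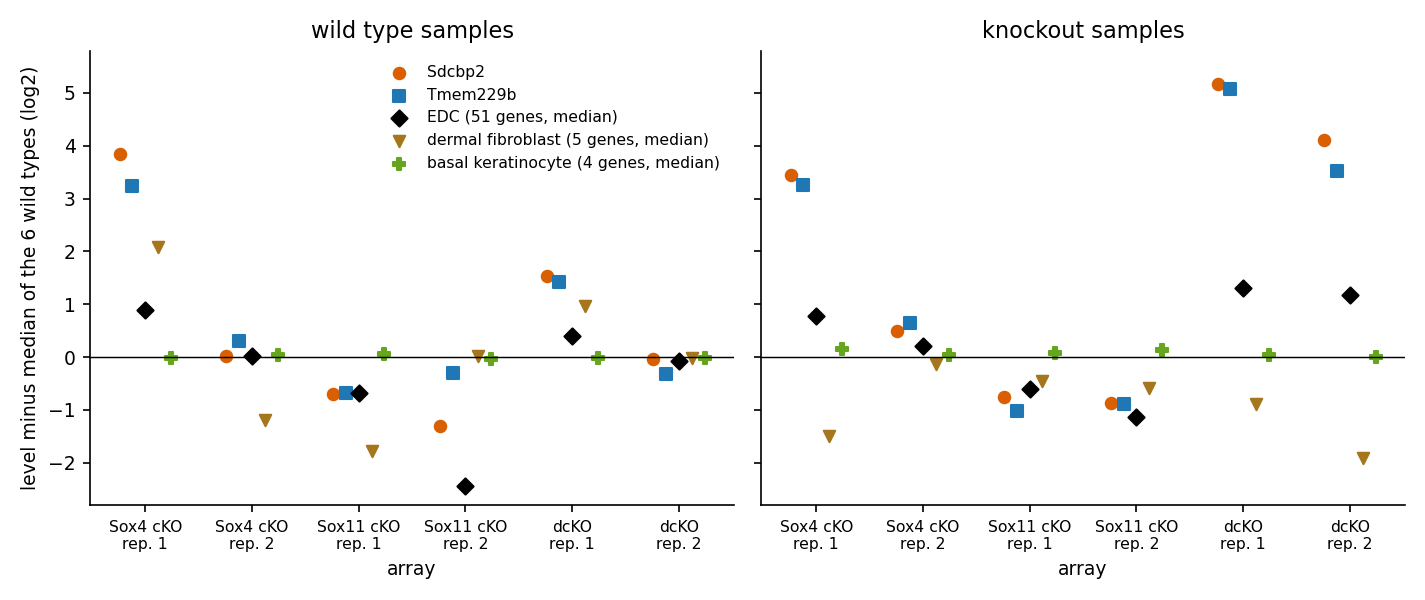
Level minus the median of the 6 wild types in log2 (y axis) by array (x axis), for wild-type samples on the left and knockout samples on the right. Single genes are shown by their own value and lists by the median of their genes; Sdcbp2 and Tmem229b reach 5.17 and 5.07 in dcKO replicate 1, where the EDC median is 1.32 and the dermal median is -0.89.

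The 18 listed genes of syntenin-1 and its known partners had mean dcKO log2 ratios from -0.91 (Tspan6) to 0.67 (Pld2). All 18 were on the array, 16 of them well above background in at least 1 sample, and 0 of 18 were called in dcKO, where 0.172% of all probes were called higher and 0.0341% lower, so that a count of 0 among 18 is near the background. Their median log2 ratio was -0.05, against 0.00 over all probes. None was called in Sox4 cKO or Sox11 cKO either. At an unadjusted limma p under 0.05 the list held 4 genes in dcKO (Cd63, Pld2, Hpse and Tspan6), 1 in Sox4 cKO (Cd63) and 2 in Sox11 cKO (Pld2 and Vps4a), where the same threshold took 9.89%, 6.18% and 7.05% of all probes in that order.

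Sdcbp, which encodes syntenin-1, had dcKO log2 ratios of -0.30 and -0.07 and a limma adjusted p of 0.715. The syndecan genes, whose products are bound by syntenin-1, ranged from -0.11 for Sdc3 to 0.26 for Sdc2 in mean log2 ratio, and none passed the test. Pdcd6ip, which encodes ALIX, stood at 0.08, and Cd63, a tetraspanin of endosomes and exosomes, at -0.36 with a limma adjusted p of 0.398. Pld2, a phospholipase that acts with Arf6 in syntenin-dependent budding, had the highest mean of the list at 0.67 (0.87 and 0.47) and a limma adjusted p of 0.136. Tspan6, a tetraspanin, fell by adjusted p alone, at -0.86 and -0.96 with a limma adjusted p of 0.0146, and was short of the required size.

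Tmem229a, the only listed paralog of Tmem229b, moved in the opposite direction. Its dcKO log2 ratios were -1.17 and -0.83, with a mean of -1.003 ± 0.24 (SD, n = 2) and a limma adjusted p of 0.0145. That is past the threshold on p and short of the 1.5 required for a call. In the dcKO channel its signal was well above background on only 1 of the 2 arrays. In the single knockouts its mean log2 ratio was 0.25 each time, with limma adjusted p of 0.828 and 0.755.

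**Figure D5:**
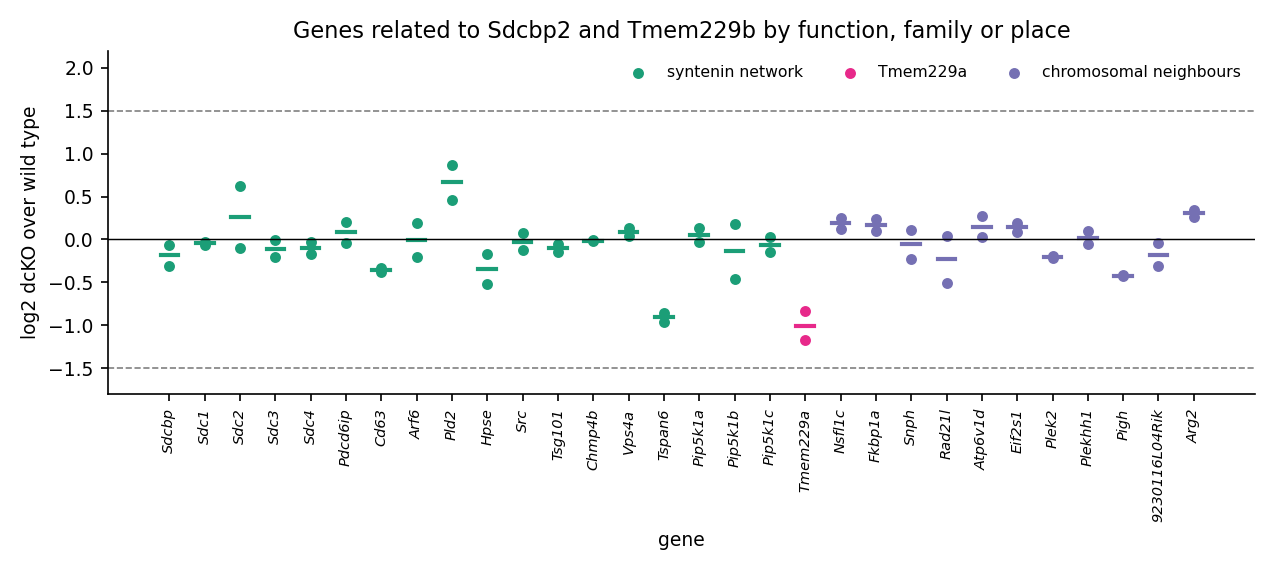
Log2 ratio of dcKO over wild type (y axis) for the 18 syntenin network genes, Tmem229a and the measured chromosomal neighbours of the pair (x axis), with points for the 2 arrays, bars for their mean and dashed lines at the size required for a call. Every mean lies between -1.003 (Tmem229a) and 0.67 (Pld2).

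The genes beside the pair on the chromosome had small ratios in dcKO. Of the 5 annotated genes on each side, 4 of 10 were measured for Sdcbp2 on chromosome 2 and 7 of 10 for Tmem229b on chromosome 12. Beside Sdcbp2, Nsfl1c and Fkbp1a were well above background in dcKO and its wild type, at mean log2 ratios of 0.19 and 0.17, whereas Snph and Rad21l were not. Beside Tmem229b, the mean ran from -0.42 for Pigh to 0.31 for Arg2, which encodes a mitochondrial arginase. None of the 11 was called, which with 0.207% of all probes called in dcKO says little about them, and the lowest limma adjusted p among them was 0.292 (Pigh).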

How the data were processed

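RNA of 3 genotypes was compared with wild-type littermate RNA on 6 Agilent 2-colour arrays, all on 1 slide and in 1 scan. The authors extracted spot intensities with Agilent Feature Extraction 11.0.1.1, and the deposited scanner files give median intensities with local background and a log10 ratio of red over green. The deposited series table holds log2 ratios of knockout over wild type, which the authors made with limma 3.5 (normexp with an offset of 16, then loess). Its values matched those recomputed here from the scanner files with a slope of 1.00, without the ComBat colour adjustment that the study's methods name.

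The table was the main source. In R 4.3.3 with limma 3.58.1, 1 coefficient per genotype and a replicate block, which is also the dye orientation, were fitted to 55681 probes, leaving 2 residual degrees of freedom. A call needed p under 0.05 after Benjamini-Hochberg adjustment together with a log2 ratio past 1.5 in size; all tests were two-sided. With 2 arrays per genotype, p-values rest on few samples. Deviations of same-numbered arrays correlated across probes at 0.26, 0.31 and 0.33. Because replicate number and dye orientation coincide, these values cannot tell a pairing of replicates from a dye difference.

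Probes were named through RefSeq accessions, 28331 of 55681, and the brightest probe stood for a gene that had more than 1. Levels are channel intensities after normexp, loess and Aquantile normalization. The named genes were the members, their paralogs, 18 genes that act with syntenins, 5 annotated neighbours on each side, the 5 closest patterns per member, the 5 next rises outside the EDC and the targeted genes. The EDC was every gene between S100a11 and S100a1, 66 of them on the array. The members, lists and motifs were chosen with earlier results of these data known. Alternatives were 5 other normalizations of the scanner files, a filter on dim probes, no replicate block and leaving out each array.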

Additional observations from a re-analysis of the deposited data

How the results depend on the processing

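Over 7 alternatives, the mean log2 ratio in dcKO ran from 3.59 to 4.22 for Sdcbp2 and from 3.49 to 4.06 for Tmem229b. For Tmem229b the ends came from an offset of 50 (3.49) and from the Feature Extraction log ratio (4.06). In Sox4 cKO, Sdcbp2 changed sign to -0.017 with an offset of 50 (limma adjusted p = 0.989), and the cause was not tested. Without Sox4 cKO replicate 2 it was -0.16, where only replicate 1, with its ratio of -0.41, was left for that genotype. In Sox11 cKO the Feature Extraction log ratio moved Sdcbp2 to 0.83, above the interval of the fit, and Tmem229b to -0.74. No alternative brought either gene past the threshold in a single knockout. The lowest limma adjusted p over the 7 alternatives was 0.707 and 0.679 for Sdcbp2 and 0.701 and 0.492 for Tmem229b, in Sox4 cKO and Sox11 cKO. No syntenin network gene was called in dcKO under any of them.

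Leaving out each array in turn gave dcKO ratios of 3.79 to 3.99 for Sdcbp2 and of 3.68 to 3.82 for Tmem229b. Where 1 array of a genotype was left, the replicate block, estimated from the other genotypes, shifted its ratio. The dcKO spans are thus narrower than the 2 arrays themselves, at 3.65 and 4.13 for Sdcbp2 and 3.66 and 3.84 for Tmem229b. The ranges in Sox4 cKO were -0.16 to 0.22 and 0.01 to 0.35, and in Sox11 cKO 0.10 to 0.28 and -0.70 to -0.22, in the same order, and the count of syntenin network genes called stayed at 0.

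Without the replicate block the means were as before (3.89 for Sdcbp2 and 3.75 for Tmem229b in dcKO), and in the single knockouts every limma adjusted p of the pair was 0.9999 or higher, so the block changed no call.

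Leaving out Aquantile normalization, an alternative added after the data were seen, gave wild-type ranges of 4.44 for Sdcbp2 and 3.84 for Tmem229b, and put the lower dcKO level 0.42 and 0.44 above the highest wild type. Signals near background limit the Sox11 cKO ratios, and 2 arrays per genotype limit every interval.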
